A study of Rattus norvegicus with 18 samples.

Results

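MERGE.19062 is a locus of a merged transcript assembly that was quantified in the abdominal aorta of rats. Its members were taken as every listed transcript whose identifier begins with MERGE.19062 followed by a dot. That gave 32 of the 4874 transcripts listed in the series. The tables of WKY and SHR listed 31 of them among 3659 transcripts. The tables of SHR+ETH listed 3 of them among 1635 transcripts. MERGE.19062.36 and MERGE.19062.61 were listed for all 3 groups, and MERGE.19062.47 for SHR+ETH alone.

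The series holds 18 ribosomal RNA-depleted libraries, 6 per group, each from a different animal. WKY (Wistar Kyoto) is a normotensive inbred strain, and SHR is the spontaneously hypertensive rat, an inbred strain selected for high blood pressure from the same Kyoto stock of Wistar rats. WKY and SHR received double distilled water by gavage for 10 weeks. SHR+ETH were SHR given ethoxysanguinarine (ETH), a plant alkaloid, at 3.5 mg/kg per day for the same time. The labels used here give no age. A library is called by its group followed by its number.

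In a merged assembly, reads of all libraries are built into transcript models, and models that overlap on the same strand are gathered under 1 locus number with a further number for each model. A locus with many models holds alternative splice forms, alternative ends or fragments of the same gene, or neighbouring genes joined by overlapping models. Reads that fit several models of a locus have to be divided among them, so the values of single models of a locus are less certain than those of a gene with 1 transcript.

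The gene behind the locus is not known here. None of the 32 identifiers, and none of the 1247 Ensembl identifiers in the files, was paired with a gene by the RefSeq gene table used. The position, strand, exons and sequence of the models were not analysed here, and the markers of smooth muscle, endothelium or other cell types could not be read to check the tissue label. The values carry no unit in the file headers, and the depth behind them is unknown. Whether they are per transcript length is not stated, so sums and shares over the transcripts of the locus treat their values as being on the same scale. In bulk tissue, fewer cells of a type and less RNA per cell cannot be told apart.

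The locus was picked with the values of these same libraries in view, with MERGE.19062.12, MERGE.19062.61, MERGE.19062.71 and MERGE.19062.83 named in the choice. The strain differences below are therefore a description and are given without a p-value.

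Among the listed transcripts of this locus, WKY and SHR showed nearly separate sets. Of the 31 listed for the strains, 17 had a higher mean log2(value + 1) in WKY and 14 a higher one in SHR. Of the 17 higher in WKY, 15 were listed at 0 in all 6 SHR libraries, and the 2 others were MERGE.19062.8 and MERGE.19062.10. Of the 14 higher in SHR, MERGE.19062.67 and MERGE.19062.69 were listed at 0 in all 6 WKY libraries, and 12 had every WKY value under 1. The highest WKY value among these 14 was 2.92, for MERGE.19062.38 in WKY 4.

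**Figure D1:**
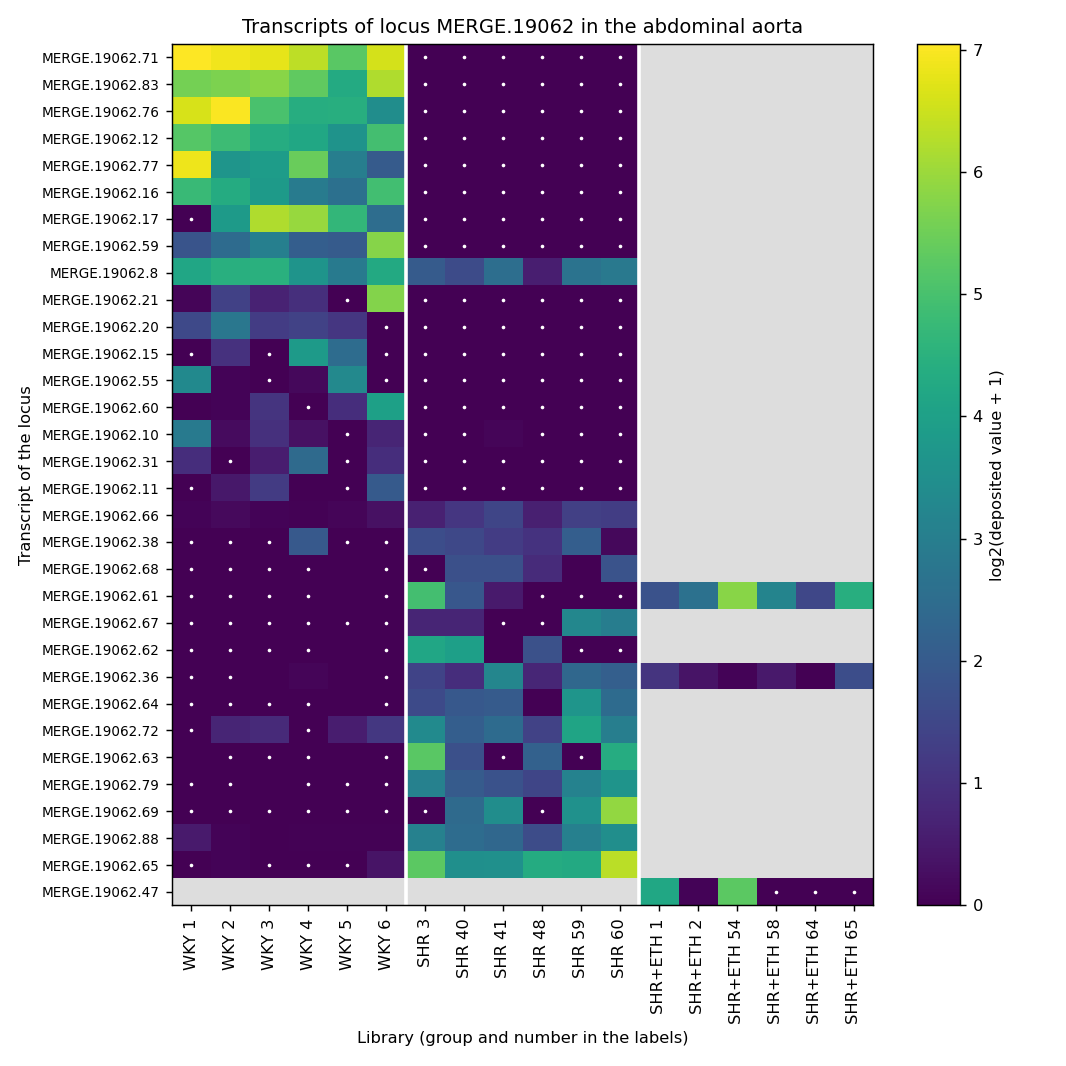
Colour gives log2(deposited value + 1) of the 32 transcripts (rows, ordered by the SHR minus WKY difference) in the 18 libraries (columns). A white dot marks a value of 0 and grey a transcript that the tables of that group do not list. The upper 17 rows carry signal in WKY, where MERGE.19062.71 reaches 131.2, and among them MERGE.19062.8 is the row with signal in all 6 SHR libraries.

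The most abundant transcript in WKY was MERGE.19062.71. Its WKY values ran from 37.0 in WKY 5 through a median of 103.1 to 131.2 in WKY 1, and it was listed at 0 in all 6 SHR libraries. MERGE.19062.83 ran from 19.0 in WKY 5 through a median of 47.7 to 72.7 in WKY 6, again with 0 in every SHR library. MERGE.19062.12 ran from 11.3 in WKY 5 through a median of 23.5 to 35.3 in WKY 1, with SHR likewise at 0. These 3 transcripts varied 3.54-fold, 3.83-fold and 3.12-fold between WKY animals, and their strain groups did not overlap. No fold is given for them, because the values of the files offer no detection floor for a group at 0.

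MERGE.19062.76 and MERGE.19062.77 spread more widely among the WKY animals. MERGE.19062.76 had a median of 25.9 and ranged from 9.87 in WKY 6 to 126.7 in WKY 2. MERGE.19062.77 had a median of 12.7 and ranged from 3.08 in WKY 6 to 115.2 in WKY 1. Both were lowest in WKY 6, in which MERGE.19062.83 was highest. MERGE.19062.16 ranged from 5.12 in WKY 5 through a median of 16.4 to 29.1 in WKY 6. MERGE.19062.59 lay between 2.53 and 7.26 in 5 WKY libraries and at 53.7 in WKY 6. All 4 were listed at 0 in every SHR library.

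The 8 other transcripts at 0 throughout SHR were also at 0 in at least 1 WKY library. MERGE.19062.17 was the most abundant of them: it was listed at 0 in WKY 1 and reached 72.2 in WKY 3, with a median of 18.8. MERGE.19062.21 stood at 52.2 in WKY 6 and at 1.57 or less in the others. The highest values of these 8 transcripts lay between 2.96 and 72.2, and their WKY means between 0.776 and 29.3. Libraries of the same strain thus differed in which of these models were listed above 0. Whether the animals differed, or the division of reads among models, was not tested.

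MERGE.19062.8 had sizeable values in both strains. Its values ran from 6.52 in WKY 5 through a median of 17.7 to 21.4 in WKY 3, and from 0.520 in SHR 48 through a median of 3.96 to 6.21 in SHR 60. The strain groups did not overlap, although the lowest WKY value and the highest SHR value were close. The mean was 16.0 ± 5.81 (SD, n = 6) in WKY and 3.70 ± 2.20 in SHR, a difference of -1.93 on the log2(value + 1) scale (limma SE 0.42). It was the 1 locus transcript higher in WKY that had a value in every library of both strains.

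The leading transcript in SHR was MERGE.19062.65. It ran from 10.5 in SHR 40 through a median of 19.0 to 79.3 in SHR 60, while WKY lay between 0 and 0.293. The difference was 4.48 on the log2(value + 1) scale (limma SE 0.42), and the strain groups did not overlap. MERGE.19062.88 was lower but steadier, from 2.11 in SHR 48 through a median of 6.07 to 10.3 in SHR 60, against 0.00844 to 0.412 in WKY (difference 2.58, SE 0.29). MERGE.19062.79 ran from 1.79 to 11.5 in SHR and was at 0 in 5 WKY libraries and at 0.0169 in the other. MERGE.19062.72 ran from 1.63 to 16.4 in SHR and from 0 to 1.21 in WKY. MERGE.19062.66, from 0.540 to 1.78 in SHR, had a low value in every WKY library, from 0.0274 to 0.247.

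Other SHR transcripts had signal in some animals and 0 in others, with 6 of the 14 listed at 0 in at least 1 SHR library. MERGE.19062.61 stood at 29.6 in SHR 3, 2.74 in SHR 40 and 0.418 in SHR 41, and was listed at 0 in SHR 48, SHR 59 and SHR 60. In WKY it was listed at 0 in 5 libraries and at 0.00335 in WKY 5. MERGE.19062.69 showed a different order, at 58.5 in SHR 60 and 0 in SHR 3 and SHR 48. MERGE.19062.63 reached 37.1 in SHR 3 and 19.6 in SHR 60 and was listed at 0 in SHR 41 and SHR 59. MERGE.19062.62 was highest in SHR 3, at 17.2, and listed at 0 in SHR 59 and SHR 60. The SHR groups of these 4 transcripts overlapped the WKY values at or near 0.

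**Figure D2:**
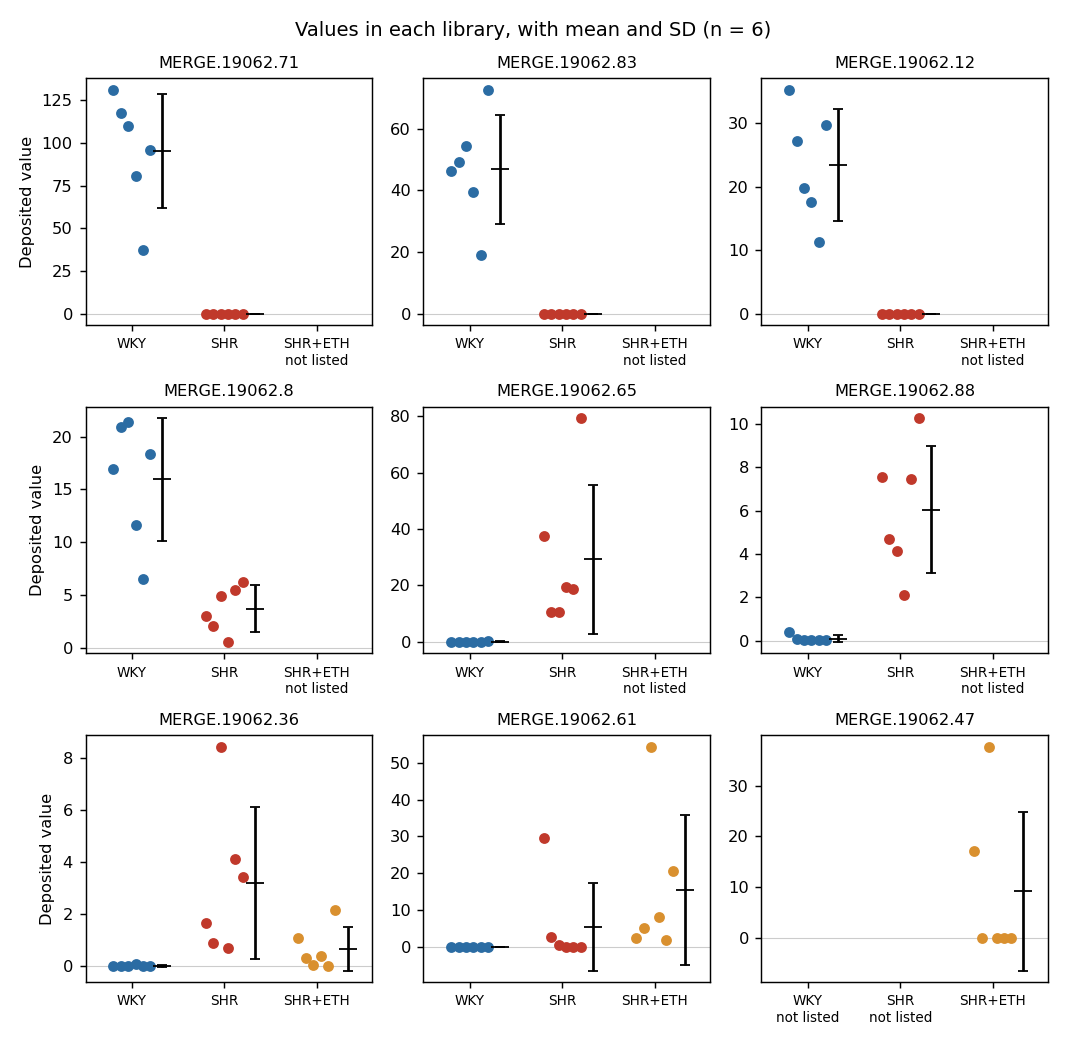
Deposited values of 9 transcripts in each library (points) by group, with mean and SD of 6 libraries beside them. The top row is at 0 in all SHR libraries, MERGE.19062.8 has values in both strains, MERGE.19062.65 and MERGE.19062.88 are high in SHR, and the bottom row holds the 3 transcripts listed for SHR+ETH.

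The values of WKY and SHR did not overlap in 15 of the 31 transcripts, beside 19.7% of the list of 3659. In 8 of these all WKY values were higher, where 9.46% of the list were separated that way. In 7 all SHR values were higher, where 10.2% of the list were. The 15 transcripts at 0 in all 6 SHR libraries stood beside 4.54% of the list, and the 2 at 0 in all 6 WKY libraries beside 8.14%. Of the 66 listed transcripts at 0 in all SHR and above 0 in all WKY libraries (1.8% of the list), 7 belonged to this locus, which is 10.6% of those 66 and 22.6% of the 31. None of the 75 transcripts with the opposite pattern (2.05% of the list) did. The median absolute difference on the log2(value + 1) scale was 1.93 over the 31 and 0.83 over the 3659. The locus was chosen on this contrast and the criterion behind the list is unknown, so nothing is read from these counts.

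Of the 31 transcripts, 13 passed the filter of a value of at least 1 in 6 of 12 libraries and entered the limma fit of the whole list. Of these, 8 were called lower in SHR, beside 38.1% of the 1585 transcripts tested, and 5 higher, beside 44.4%. Without the filter 11 of the 31 were called lower and 12 higher, and with a filter of at least 5 in 6 libraries 6 of 7 were called lower and 1 higher. The shares of all transcripts called under these settings were not taken, so nothing is read from these counts. With 6 libraries a strain, a transcript that was high in 1 strain passed the filter through that strain, so the calls are a description as well. The calls in SHR were MERGE.19062.38, MERGE.19062.65, MERGE.19062.72, MERGE.19062.79 and MERGE.19062.88. MERGE.19062.38 was the 1 among the 13 whose groups overlapped, at 0.118 to 3.27 in SHR and at 0 in 5 WKY libraries with 2.92 in WKY 4.

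The sum over the 31 transcripts was higher in WKY in most but not all libraries. It was 348.1 ± 114.8 (SD, n = 6) in WKY, from 150.1 in WKY 5 through a median of 370.7 to 490.9 in WKY 1. In SHR it was 101.6 ± 69.0, from 34.4 in SHR 48 through a median of 76.8 to 211.4 in SHR 60. SHR 3, at 156.2, and SHR 60 lay above WKY 5, so the groups overlapped. The difference was -1.96 on the log2(sum + 1) scale (SE 0.47 from the spread between libraries). WKY 5 also had the lowest sum of all listed values among the WKY libraries, at 30307, and SHR 60 the highest among the SHR libraries, at 50052. As a share of all listed signal the locus took 0.495% to 1.46% in WKY and 0.118% to 0.659% in SHR. On that measure SHR 3 still lay above WKY 5, at 0.659% against 0.495%, and SHR 60 below it, at 0.422%. With the most abundant listed transcript left out of the total the order turned, with SHR 60 at 0.967%, WKY 5 at 0.8002% and SHR 3 at 0.714%. Which SHR libraries exceeded WKY 5 thus depended on the scaling.

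The make-up of that sum differed between the strains as well. The 17 transcripts higher in WKY made up 99.0% to 99.9% of the locus sum in each WKY library and 1.51% to 9.20% of it in SHR, of which nearly all was MERGE.19062.8. The 17 were picked on these same values, so a larger share in WKY is built in. MERGE.19062.8 took a similar share in both strains, 4.60% ± 0.971 (SD, n = 6) in WKY and 4.13% ± 2.83 in SHR. MERGE.19062.71 led in 5 of the 6 WKY libraries and took 27.2% ± 2.69 of the sum there, from 24.6% to 31.4%. In WKY 2 MERGE.19062.76 led with 31.7%. MERGE.19062.65 led in 5 of the 6 SHR libraries and took 29.2% ± 15.1, from 18.2% to 56.3%, and MERGE.19062.62 led in SHR 40 with 25.7%. The share of MERGE.19062.71 was thus steadier than that of MERGE.19062.65, which rested partly on SHR 48 (23.8% without it).

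**Figure D3:**
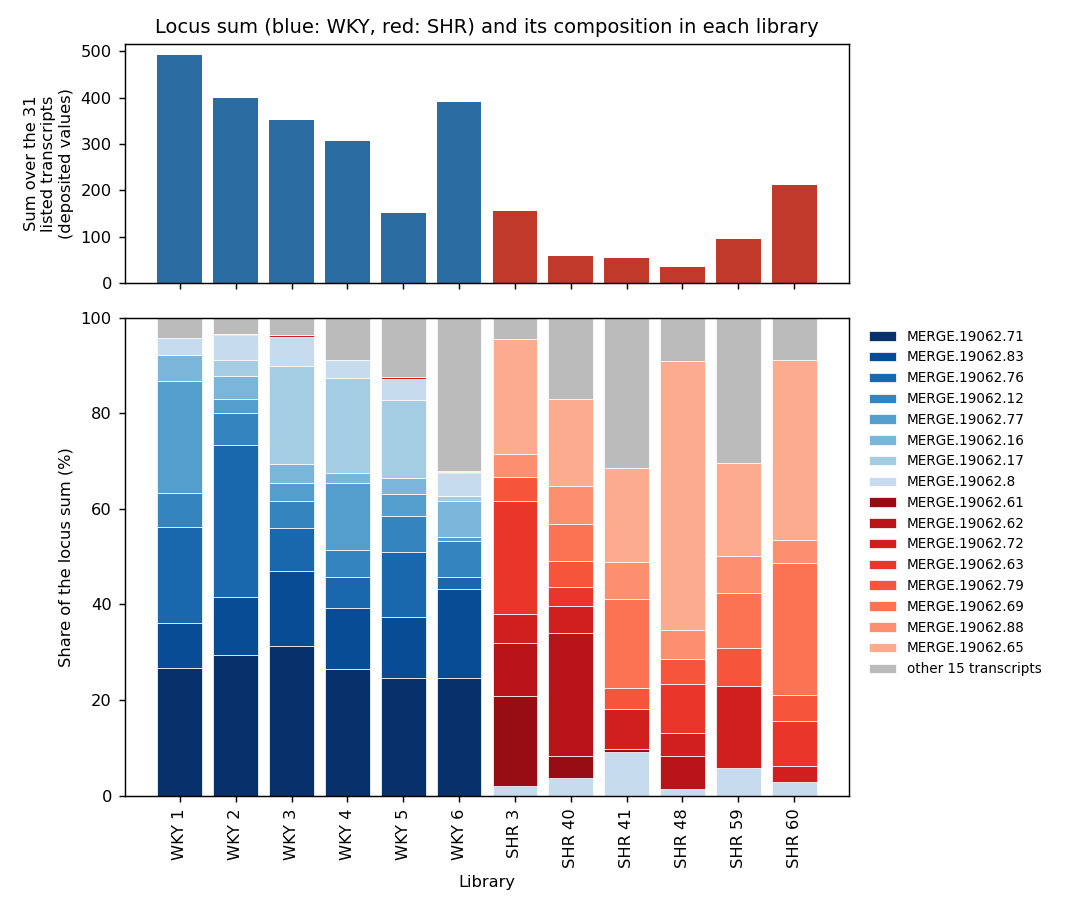
The upper panel gives the sum of the 31 listed locus transcripts in each library, with the lowest WKY sum at 150.1 and the highest SHR sum at 211.4. The lower panel gives the share of each transcript in that sum (blue for those higher in WKY, red for those higher in SHR, grey for the others), and MERGE.19062.8, in the palest blue, is the band of visible size in both strains.

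Composition can be set side by side as the overlap of 2 libraries, that is, the sum over transcripts of the smaller of both shares. Pairs of WKY libraries overlapped by a median of 68.7% (range 54.3% to 83.1%) and pairs of SHR libraries by 55.2% (41.6% to 71.03%). A WKY and an SHR library overlapped by a median of 3.47% (1.60% to 6.50%). MERGE.16145, the locus with the most listed transcripts (32), had sums of 172.2 ± 26.3 in WKY and 179.9 ± 29.0 in SHR. Its overlap between strains was a median of 28.2%, with 69.9% within WKY and 69.7% within SHR. It had 4 transcripts at 0 in all SHR libraries and 5 at 0 in all WKY libraries. MERGE.15180, with 13 listed transcripts and sums of 5.40 and 6.32, had a median overlap of 0% between strains, so little overlap also occurred elsewhere in the list. The median overlap between strains was 13.6% for MERGE.581 (9 transcripts), 2.83% for MERGE.15382 and 10.2% for MERGE.15948 (7 each). No test of these differences was made.

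MERGE.19062 ranked second in listed transcripts among the 2169 assembled loci of the strain list, of which 1838 had a single one. The numbers of its listed transcripts ran from 8 to 88, and 56 numbers up to the highest were not listed. Whether models with those numbers exist, and how they vary between strains, is unknown here. The sets, sums, shares and overlaps above therefore cover only the listed part of the locus. Neighbouring numbers tended to share the strain in which they were higher: the 10 listed from MERGE.19062.8 to MERGE.19062.31 were all higher in WKY. All 9 from MERGE.19062.61 to MERGE.19062.69 were higher in SHR, with no number missing. Above MERGE.19062.69 the strains alternated. No source used here says what the numbers stand for, and this grouping was noticed after the values were seen.

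Within a strain, rank correlations between locus transcripts had both signs, with medians above that of all listed pairs. Rank correlations were taken within each strain over its 6 libraries, for transcripts above 0 in at least 4 of them. This criterion lets in transcripts near 0, such as MERGE.19062.66 in WKY (0.0274 to 0.247), whose ranks are less certain. The 19 such transcripts in WKY gave 171 pairs with a median Spearman rho of 0.14, against 0.029 over all pairs of listed transcripts that met the same criterion. The 14 in SHR gave 91 pairs with a median of 0.26, against 0.029. Pairs with rho above 0.8 made up 7.02% of the locus pairs in WKY (3.59% of all pairs) and 11.0% in SHR (3.46%). Pairs with rho below -0.8 made up 2.34% in WKY (3.13% of all pairs) and 2.20% in SHR (3.06%). In all, rho was below 0 in 65 of the 171 WKY pairs and 28 of the 91 SHR pairs. After scaling to the median total the WKY median was 0.086, and the SHR median stayed at 0.26. The median over all listed pairs was not taken after scaling. All pairs of a strain share its 6 libraries and their depth, so these are descriptions with no p-value.

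In WKY, MERGE.19062.12 moved with MERGE.19062.16 (rho 0.94) and with MERGE.19062.71 (0.83), and MERGE.19062.83 with MERGE.19062.8 (0.83). MERGE.19062.11 and MERGE.19062.59 (0.99), with MERGE.19062.21, formed a set that was highest in WKY 6. MERGE.19062.55 ran against it in rank, with rho -0.99 to MERGE.19062.59. It was listed at 0 in WKY 3 and WKY 6, at 0.0553 in WKY 2 and at 0.101 in WKY 4. MERGE.19062.11 was listed at 0 in WKY 1 and WKY 5 and at 0.00496 in WKY 4. The rho values of MERGE.19062.55 and MERGE.19062.11 thus rest partly on the order of values at or near 0. In SHR, MERGE.19062.79 moved with MERGE.19062.88 (0.94) and MERGE.19062.67 (0.93), and MERGE.19062.36 with MERGE.19062.66 (0.94). MERGE.19062.8 followed MERGE.19062.69 (0.90) and MERGE.19062.64 (0.89). MERGE.19062.62 ran against MERGE.19062.69 (-0.88).

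**Figure D4:**
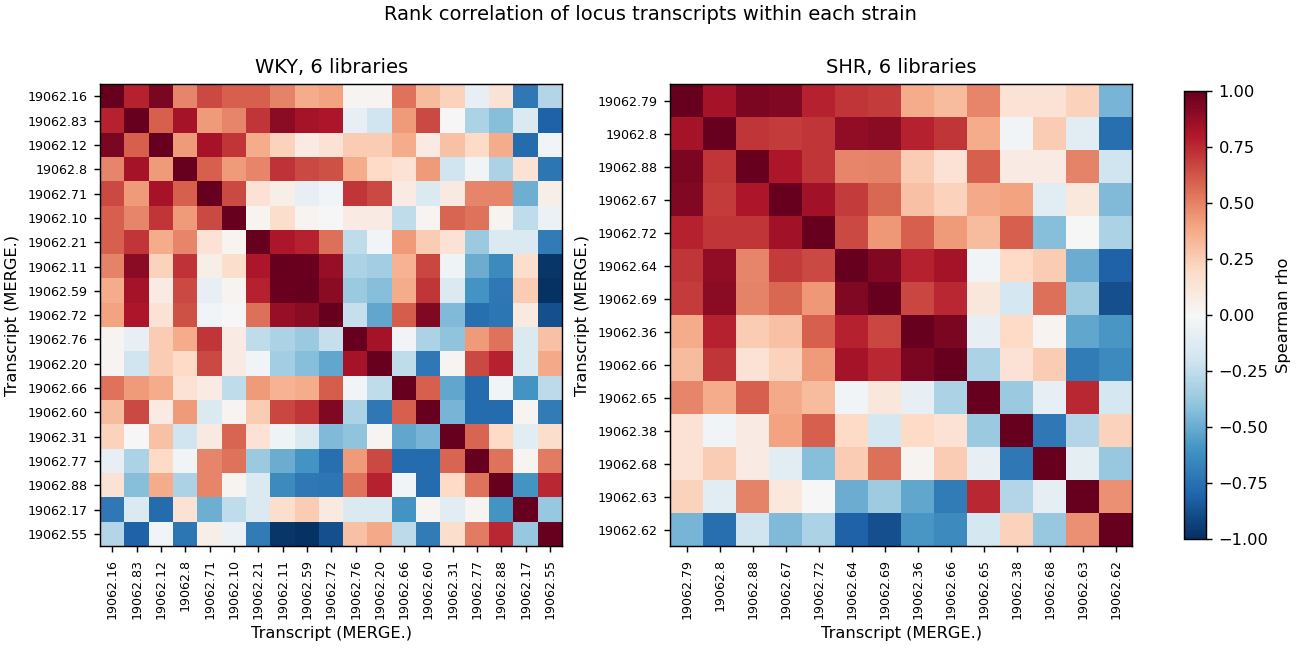
Spearman rho between locus transcripts above 0 in at least 4 of 6 libraries, within WKY (19 transcripts) and within SHR (14 transcripts), ordered by the sum of their correlations. Red blocks mark transcripts that were high in the same animals, such as MERGE.19062.79 and MERGE.19062.88 in SHR (0.94), and blue ones those high in different animals, such as MERGE.19062.62 and MERGE.19062.69 (-0.88).

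The lowest and highest values of the locus transcripts were also counted by library. The same was not counted over the whole list, so nothing about the locus is read from these counts. Of the 10 transcripts above 0 in all WKY libraries, 5 were lowest in WKY 5, and WKY 1 and WKY 6 each held the highest value of 4. Of the 9 above 0 in all SHR libraries, 7 were lowest in SHR 48. After each library was scaled to the median total of listed values, WKY 5 and SHR 48 were still lowest in 5 and 7, whereas WKY 1 held the highest value of 7 and WKY 6 of 3.

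The 1572 tested transcripts outside the locus were compared with 4 of its members and with its sum over the 12 strain libraries. MERGE.23842.1 was the closest to MERGE.19062.71 (Pearson r of log2(value + 1) 0.996, and 0.87 within WKY), MERGE.19062.83 (0.99) and MERGE.19062.12 (0.99). It stood at 69.8 ± 21.0 (SD, n = 6) in WKY and 0.762 ± 0.310 in SHR. ENSRNOT00000031418 came next for MERGE.19062.71 (0.99) and MERGE.19062.83 (0.99), and MERGE.15863.1 for MERGE.19062.12 (0.99). MERGE.15863.1 lay between 9.29 and 18.1 in WKY and was listed at 0 in all SHR libraries. The r over 12 libraries follows the strain difference, and within WKY it was 0.55 to 0.87 for these pairs.

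MERGE.19062.61 had no match of that closeness. ENSRNOT00000004962 (r = 0.80, with 0.94 within SHR) and ENSRNOT00000074235 (0.79, with 0.97 within SHR) were the most like it, and their strain ranges overlapped, at 0 to 1.16 in WKY and 0.805 to 4.31 in SHR for the first and at 0 to 1.58 and 0.501 to 5.72 for the second. The locus sum was most like ENSRNOT00000082141, with r of 0.94 over the 12 libraries, 0.97 within WKY and 0.77 within SHR. MERGE.2034.1 followed, with 0.93, 0.81 and 0.78. These correlations are picked as the highest of 1572, and the libraries they share are their points.

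In treated SHR, MERGE.19062.61 carried signal in every animal. Its SHR+ETH values were 1.83 in SHR+ETH 64, 2.41 in SHR+ETH 1, 5.13 in SHR+ETH 2, 8.13 in SHR+ETH 58, 20.5 in SHR+ETH 65 and 54.4 in SHR+ETH 54. All lay above the WKY values, of which the highest was 0.00335. They overlapped the SHR values, since SHR 3 stood at 29.6 and SHR 40 at 2.74. The mean was 15.4 ± 20.3 (SD, n = 6) in SHR+ETH and 5.46 ± 11.9 in SHR, a difference of 1.99 on the log2(value + 1) scale (limma SE 0.84).

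MERGE.19062.36 had an SHR+ETH mean between the means of the 2 untreated groups, and its SHR+ETH values overlapped both ranges. Its SHR values ran from 0.686 in SHR 48 through a median of 2.54 to 8.44 in SHR 41. Its SHR+ETH values were 0.00297 in SHR+ETH 64, 0.0471 in SHR+ETH 54, 0.305 in SHR+ETH 2, 0.392 in SHR+ETH 58, 1.08 in SHR+ETH 1 and 2.18 in SHR+ETH 65. Its WKY values ran from 0 to 0.0761. SHR+ETH 1 and SHR+ETH 65 overlapped the SHR range, and SHR+ETH 54 and SHR+ETH 64 the WKY range. The SHR+ETH mean was 0.668 ± 0.835 (SD, n = 6) against 3.20 ± 2.91 in SHR, a difference of -1.19 on the log2(value + 1) scale (limma SE 0.42). After quantile normalization that difference was -0.50.

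MERGE.19062.47 was listed for SHR+ETH alone, so its values in WKY and SHR are unknown. It stood at 37.7 in SHR+ETH 54, 17.2 in SHR+ETH 1 and 0.0587 in SHR+ETH 2, and was listed at 0 in SHR+ETH 58, SHR+ETH 64 and SHR+ETH 65. SHR+ETH 54 was thus the highest library for both MERGE.19062.47 and MERGE.19062.61 and the second lowest for MERGE.19062.36. The 29 transcripts listed for the strains alone, among them MERGE.19062.71, MERGE.19062.83, MERGE.19062.12 and MERGE.19062.65, were not analysed in treated animals.

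In the limma fits of the shared transcripts, MERGE.19062.36 was called lower in SHR+ETH than in SHR, beside 25.1% of the 199 transcripts tested. MERGE.19062.61 was not called in that comparison, where 8.54% were called higher. There limma gave 2 of 2 locus transcripts an unadjusted p under 0.05. The share of all 199 with such a p was not counted, so nothing is read from that count. Against WKY, MERGE.19062.61 was called higher, beside 0.637% of the 157 tested, and it was the 1 transcript of the list called in that direction. It passed the filter through SHR+ETH alone, where all 6 values exceeded 1, and without the filter it was not called. The SHR+ETH values of MERGE.19062.61 were separated from WKY, as in 1.9% of the 420 shared transcripts. Neither transcript was separated from SHR, as 4.29% of the 420 were. These comparisons share libraries with each other, and how the shared transcripts came to be listed is unknown, so nothing is read from the calls. The call of MERGE.19062.36 was lost without any 1 of SHR 3, 41, 59 or 60 or SHR+ETH 2, 54, 58 or 64 (differences of -1.27 to -0.91). MERGE.19062.61 was called higher than in SHR without SHR 3 (2.73) or without SHR+ETH 64 (2.33).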

How the data were processed

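The members, the lists and the comparisons were chosen with earlier results of these data known. The deposited tables hold a signal value for each transcript, fractional, never negative and with no unit in the header. The submitters' processing notes name limma, with no version. Aligner, assembly, quantification and genome build were not given in the sources used here. At most 35.1% of low values in a library were whole multiples of any step tried (tolerance 0.1, first 20 steps), so reads were not recovered. Sums of listed values ran from 23696 to 50521 in WKY and SHR and from 7046 to 10220 in SHR+ETH. No 2 libraries were identical.

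A transcript was fitted if at least 6 of the 12 libraries compared reached a value of 1. The fit was limma 3.58.1 in R 4.3.3 (lmFit, eBayes with trend) on log2(value + 1), with no covariate beside group. This scale understates differences of low transcripts. Calls used a Benjamini-Hochberg adjusted p under 0.05 over all transcripts fitted, and the step was tested on simulated data. Comparisons with SHR+ETH used the 420 transcripts listed for all groups. The call "separated" means that the ranges of 6 values did not overlap. Values of single libraries, or the range over a group, are given for 4 sets of transcripts. These are the 4 named in the choice, the 8 with the highest mean in WKY and SHR, those listed for SHR+ETH with a mean of at least 1, and up to 8 with separated strains. The other transcripts named, MERGE.19062.36 among them, were picked after their values were seen. Outside the locus, the 2 most similar transcripts of each pattern were named. Summaries used Python 3.11.15, numpy 2.4.6, pandas 2.3.3 and scipy 1.17.1.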

Additional observations from a re-analysis of the deposited data

Results flagged for a closer look

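A library was set apart from the other 5 of its group by a gap test in 22 of 50 groups of 6 values examined over the locus. By chance about 1 in 20 groups would be marked if values were normal. These are skewed, and in 7 of the 22 the other 5 libraries were all at 0. The cause was not tested.

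In WKY 6, MERGE.19062.21 stood at 52.2, MERGE.19062.59 at 53.7 and MERGE.19062.60 at 15.0, with the next library at 1.57, 7.26 and 1.08. In WKY 1, MERGE.19062.77 stood at 115.2 (next 42.3), MERGE.19062.10 at 6.28 (next 0.962) and MERGE.19062.88 at 0.412 (next 0.0539). In WKY 4, MERGE.19062.15 stood at 13.3 (next 4.61), MERGE.19062.31 at 4.37 (next 0.904) and MERGE.19062.38 at 2.92 with the others at 0. MERGE.19062.20 stood at 5.91 in WKY 2 (next 1.92).

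In SHR, MERGE.19062.61 stood at 29.6 in SHR 3 (next 2.74) and MERGE.19062.69 at 58.5 in SHR 60 (next 10.9). MERGE.19062.10 stood at 0.0763 in SHR 41 with the others at 0. In SHR+ETH 54, MERGE.19062.61 stood at 54.4 (next 20.5).

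The remaining ones are low WKY values of transcripts that were higher in SHR. In WKY 5, MERGE.19062.61 stood at 0.00335, MERGE.19062.62 at 0.00348, MERGE.19062.63 at 0.0101, MERGE.19062.64 at 0.00175 and MERGE.19062.68 at 0.00343. MERGE.19062.36 stood at 0.0761 in WKY 4, MERGE.19062.65 at 0.293 in WKY 6 and MERGE.19062.79 at 0.0169 in WKY 3.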

How the results depend on the processing

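The depth of the libraries is unknown, so a value of 0 sets no upper limit. Of the 31 transcripts, 17 were at 0 throughout 1 strain, so their sign could not turn when a library was left out or the pseudocount changed. The same holds for those whose strain groups did not overlap, such as MERGE.19062.8 and MERGE.19062.65. No sign turned in the rest, where all but MERGE.19062.38 had 1 strain at or near 0. Sizes did move without single libraries: from -1.76 to -0.62 for MERGE.19062.21, -1.21 to -0.41 for MERGE.19062.60 and 0.48 to 1.47 for MERGE.19062.61 (log2). The locus sum differed by -2.22 to -1.70 (log2) without single libraries, and scaling, the pseudocount or leaving out MERGE.19062.71 moved it by less than 1 SD. Shares without single libraries were 26.3% to 27.7% for MERGE.19062.71 in WKY and 23.8% to 31.4% for MERGE.19062.65 in SHR. The median correlation of pairs was 0.09 to 0.37 in WKY and 0.26 to 0.49 in SHR under the 3 alternatives tried.

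Between strains, limma called 8 locus transcripts lower under every leave-one-out fit and 4 to 5 higher. The number called higher was 12 without the filter (31 tested) and 1 with a filter of 5 in 6 libraries (7 tested), by construction of the filter. Shares of all transcripts called were not taken for these fits. For SHR+ETH against SHR, 1 was called lower (MERGE.19062.36, difference -1.19). It was 0 with a pseudocount of 0.1 (difference -2.40), without the filter (-1.19) and after quantile normalization (-0.50). Without single libraries, 0 to 1 were called lower and 0 to 1 higher, and quantile normalization called 1 higher. Against WKY, 1 was called higher and 0 without the filter, with the difference at 3.21 in both. The cause of these losses was not tested. The stricter filter left no locus transcript to test in either comparison with SHR+ETH.

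WKY and SHR+ETH share the numbers 1 and 2, which belong to animals of different strains, and the deviations of same-numbered libraries correlated at 0.0032 and -0.18. A replicate block on these numbers, with 1 residual degree of freedom, took the locus transcripts called higher from 1 to 0 and all transcripts called from 3 to 0. No paired analysis was possible for SHR against WKY, because they share 1 number, or for SHR+ETH against SHR, because they share none.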
